A study of Canis lupus familiaris with 16 samples.

Results

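The proteasome subunit genes of 4 canine hepatocellular carcinoma cell lines were described here after sorafenib, toceranib or vehicle. Members were the genes whose symbol is PSMA, PSMC, PSMD or PSME with a number, or PSMB with a number up to PSMB7, and whose mean over the 16 libraries reached 1 CPM, a read count scaled to library size. The immune subunits PSMB8 to PSMB10 were left out of the members by this rule. Of the 39543 symbols counted, 39 matched and 38 were kept, namely 7 alpha and 7 beta subunits of the core, 6 ATPases, 8 lid subunits, 3 scaffold and ubiquitin receptor subunits of the base, 3 base chaperones and 4 activators. PSMA8, the alpha subunit of testis proteasomes in mammals, had 2 reads in all 16 libraries together, a mean of 0.0067 CPM, and was left out. Mean levels of the 38 members lay between 53.8 CPM for PSMD9 and 362 CPM for PSMD2, and all 38 were among the 14938 genes that passed the filter on low counts and were tested.

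The proteasome is the protease complex that degrades most ubiquitin-tagged proteins of the cytosol and nucleus. Its barrel-shaped core holds the active sites inside rings of beta subunits, and outer rings of alpha subunits form the gate. A regulatory particle caps the barrel: ATPases of its base unfold the substrate and push it in, base scaffold subunits bind ubiquitin and shuttle proteins, and the lid removes ubiquitin. Activators made from the PSME genes can dock on the gate in place of the regulatory particle. In mammalian cells, subunit genes are known to be raised together by the transcription factor NFE2L1 when proteasome activity falls.

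RNA sequencing counts came from lines grown from dog liver tumours according to their labels. The lines were KU-cHCC-001, KU-cHCC-002, next KU-cHCC-004, and last KU-cHCC-005, and 4 values in a row follow this order of lines throughout. Each line was treated for 24 h with sorafenib at 30 µM, with toceranib at 15 µM, or with a vehicle, DMSO or phosphate-buffered saline (DPBS), and gave 1 library per treatment. Sorafenib and toceranib are kinase inhibitors whose known targets include receptor tyrosine kinases. The labels call both DMSO and DPBS vehicles and do not say which one either drug was dissolved in. Both drugs were set against DMSO of the same line here, so for a drug dissolved in DPBS the drug and the vehicle cannot be told apart. Total counts per library were 12008366 to 21943572, the lowest in KU-cHCC-005 with toceranib. The 4 lines are the replicates, and the main fit takes out the level of each line. Its p-values therefore set a treatment difference against how such differences vary from line to line. That variation was estimated jointly from the sorafenib, toceranib and DMSO libraries. No line has a replicate of its own under any treatment.

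Marker genes were read in all libraries before the comparisons. Bile duct and progenitor markers were present (5 of 5 reached 5 CPM in at least 1 library of every treatment), but the lines differed. With DMSO these markers summed to 544.6, 13822, 11572 and 9052 CPM in the 4 lines. In KU-cHCC-001 with DMSO, SOX9 was at 1.78 CPM and CLDN4 at 1.68 CPM. Of 6 hepatocyte markers only HNF4A and AFP reached 5 CPM in any library, and ALB, which encodes albumin, stayed at or below 0.42 CPM. KRT7, a bile duct keratin, was at 242.3 CPM with sorafenib, 297.9 CPM with toceranib and 289.9 CPM with DMSO in KU-cHCC-001, but at 3639 CPM in the library labelled KU-cHCC-001 with DPBS. Between DPBS and DMSO, 1 of 4 libraries was most like its own line, against 4 of 4 for sorafenib with DMSO and for toceranib with DMSO. With DPBS, the library under the label KU-cHCC-005 was close to the one under KU-cHCC-002, and KU-cHCC-004 with DPBS was close to KU-cHCC-001 with DPBS. The median over 9597 genes of the squared count difference divided by its counting noise was 1.13 and 1.21 in these 2 pairs, where counting noise alone gives 0.455. The next lowest ratio of any pair was 5.86, between the toceranib libraries of KU-cHCC-004 and KU-cHCC-005, and KU-cHCC-005 with toceranib was at 6.09 with the DPBS library labelled KU-cHCC-002. The line labels of the DPBS libraries are therefore in doubt, they may not be 4 separate samples, and their levels below are given as ranges. Those labels still enter the figure symbols, the correlations with DMSO, and alternative fits over all 16 libraries that take out the level of each line. KU-cHCC-002 with toceranib was at a ratio of 10.9 with the DPBS library labelled KU-cHCC-004, and at 14 with KU-cHCC-005 with toceranib. Its ratio with its own DMSO library was not among those up to 20.2, although by correlation it was most like that DMSO library among the 4. Of 9 stromal markers, 8 reached 5 CPM in at least 1 toceranib library, and 8 in at least 1 DPBS library. With sorafenib and with DMSO it was 3 of 9 each. With toceranib, LUM and DCN reached it only in KU-cHCC-005, at 22.3 and 17.2 CPM. COL3A1 was at 51.7 CPM and ACTA2 at 108.4 CPM with toceranib in KU-cHCC-005. With DMSO that line had no COL3A1 read and 0.332 CPM of ACTA2. Of 5 leukocyte markers, CD74 had 321.0 CPM with toceranib in KU-cHCC-001, against 2.7 CPM with DMSO, while PTPRC, CD3E and LAPTM5 were at 0 in both libraries and CD14 had 12.3 CPM with toceranib and 11.6 CPM with DMSO.

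The lines differed in how much of their RNA was proteasome transcript. With DMSO, the 38 members summed to 5619, 8821, 6173 and 7404 CPM in the 4 lines, so KU-cHCC-002 was highest and KU-cHCC-001 lowest. Of the 38 members, 23 were highest in KU-cHCC-002 (60.5%, where 26.5% of 13128 tested genes with a mean of at least 1 CPM in DMSO were), 12 in KU-cHCC-005 and 3 in KU-cHCC-004, while KU-cHCC-001 was highest for 0. KU-cHCC-001 held the lowest level of 22 members and KU-cHCC-004 that of 14. The median member varied 1.59-fold between the highest and the lowest line, and the median of those 13128 genes varied 2.02-fold. Those genes include levels far below the members' own, so the comparison was not matched for level. With 1 DMSO library per line these differences carry no test.

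Members varied unevenly among the lines. PSME2, a subunit of the interferon-inducible activator, had 53.6, 153.7, 206.7 and 111.6 CPM with DMSO in the 4 lines, a 3.86-fold range and the widest of the 38. Its partner PSME1 had 90.9, 166.9, 194.9 and 138.4 CPM, also lowest in KU-cHCC-001 and highest in KU-cHCC-004. The lid subunits PSMD7 and PSMD13 varied 3.115-fold and 3.06-fold, both highest in KU-cHCC-002. PSME3, which forms the nuclear activator, had 141.0, 142.1, 129.8 and 137.3 CPM and the narrowest range, 1.09-fold.

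**Figure D1:**
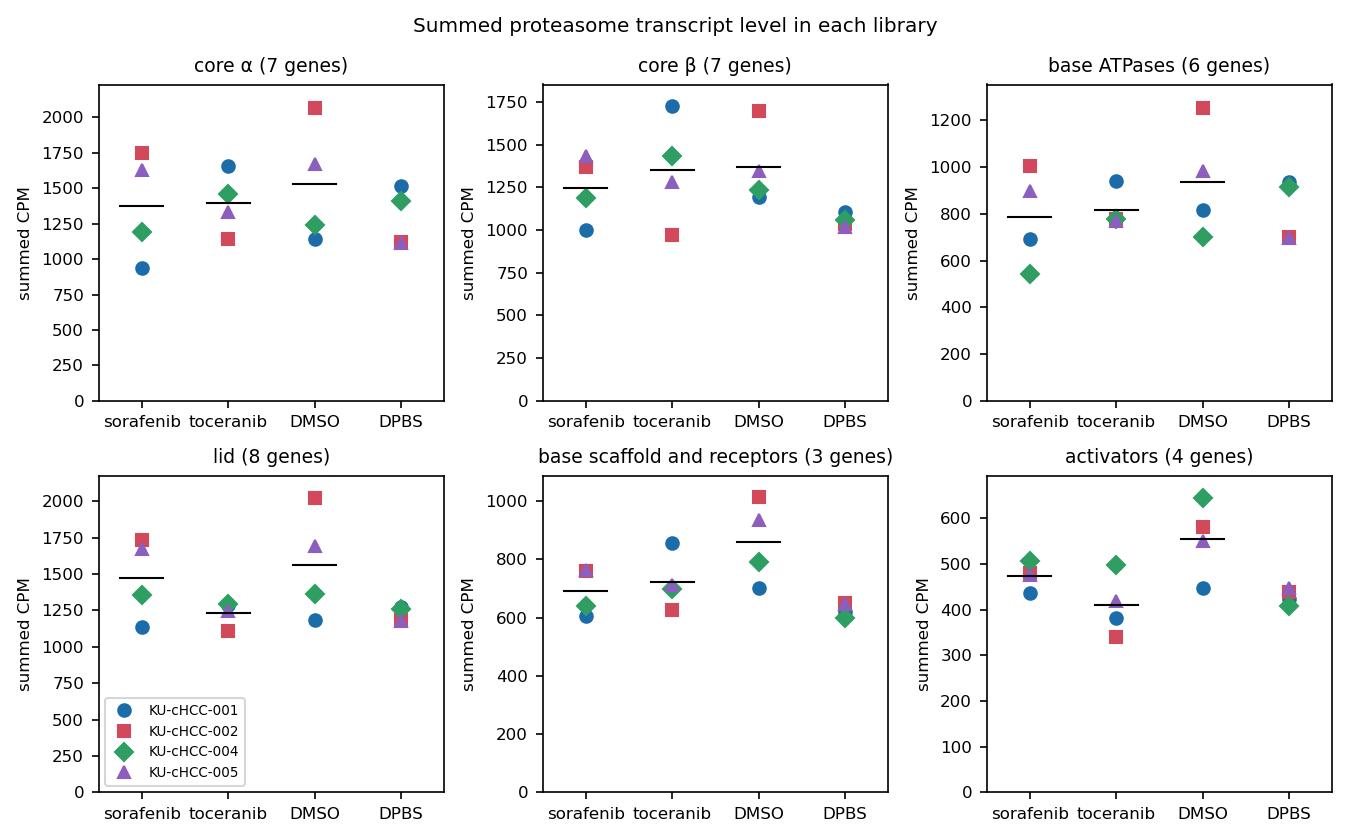
Summed CPM (y axis, linear from 0) of the members of 6 structural groups in each of the 16 libraries, by treatment (x axis). Symbols and colours mark the line of the label and black bars the mean of the 4 libraries (none drawn for DPBS); KU-cHCC-002 is highest for both core groups among DMSO libraries and lowest for both among toceranib libraries.

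Sorafenib changed few of the 38 members past the threshold, and the genes that passed were lower. Adjusted p-values (Benjamini-Hochberg, edgeR quasi-likelihood fit of treatment and line over the 12 sorafenib, toceranib and DMSO libraries) were under 0.05 for PSMC5 and PSME1, both lower, and for 0 members in the higher direction, where 10.1% of all tested genes were called lower and 9.59% higher. At an unadjusted p under 0.05 there were 2 higher and 6 lower members, against 2513 higher and 2640 lower of 14938 tested genes. DESeq2 called 0 members higher and 4 lower, namely PSMC5, PSME1, PSMA5 and PSMD3, against 1873 and 1864 of the tested genes. The median log2 fold change of the members was -0.15, against -0.02 for all tested genes, and 26 of 38 were negative. Relative to DMSO of the same line, 16 members were lower in all 4 lines (42.1%, against 24.5% of all tested genes) and 5 were higher in all 4 (13.2%, against 26.3%).

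The sum over the 38 members was 4956, 7313, 5684 and 7139 CPM with sorafenib in the 4 lines, against 5619, 8821, 6173 and 7404 CPM with DMSO. Sorafenib libraries thus kept the order of the lines seen with DMSO, and each was below its own DMSO library, at ratios of 0.88, 0.83, 0.92 and 0.96. The mean was 6273 ± 1142 CPM with sorafenib and 7004 ± 1423 CPM with DMSO (SD, n = 4 each). The shift between means was smaller than these SDs. They include the differences between lines, which the ratios within each line take out, so they do not measure the spread of the shift. By line, the members' median change was -0.17, -0.19, -0.02 and 0.02 on the log2(CPM + 0.5) scale. Scaling by total counts alone moved the median of all tested genes to 0.12 in KU-cHCC-002, where the members' median became -0.04, and turned that of KU-cHCC-004 to 0.05.

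The call counts depended on which libraries shared the estimate of the spread. Fitted on the 8 sorafenib and DMSO libraries alone, 11 members were lower and 1 was higher (28.9% and 2.63% of 38), where 18.2% of 13821 tested genes were lower and 18.3% higher. The 11 were PSMA4, PSMA5, PSMB4, PSMC1, PSMC4, PSMC5, PSMD1, PSMD2, PSMD3, PSMD7 and PSME1, and the higher one was PSMD5. No member's log2 fold change differed by more than 0.034 between the fits, while the median SE was 0.109 with 8 libraries and 0.193 with 12. PSMD3, for example, was at -0.55 ± 0.19 (SE) with 12 libraries and at -0.55 ± 0.11 (SE), adjusted p = 0.00679 with 8.

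**Figure D2:**
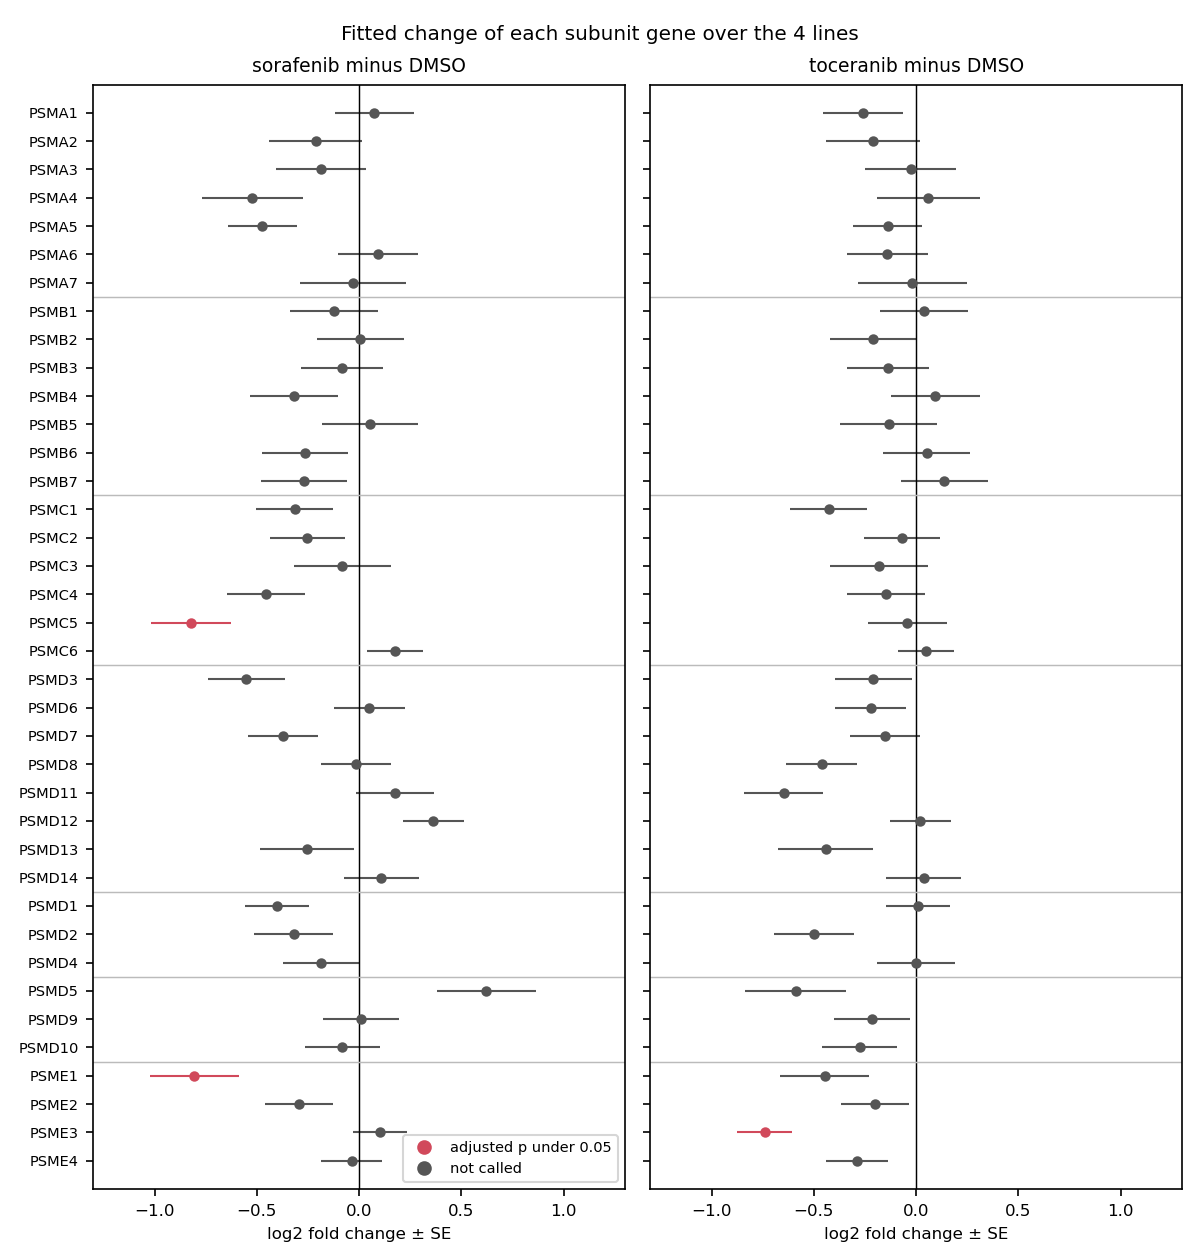
Fitted log2 fold change (x axis) of each of the 38 members (y axis, in blocks of core alpha, core beta, ATPases, lid, scaffold, chaperones and activators) for sorafenib minus DMSO and toceranib minus DMSO, with bars of 1 SE. Red points passed an adjusted p under 0.05: PSMC5 and PSME1 with sorafenib, and PSME3 with toceranib.

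Among the alpha subunits, which form the gated outer rings of the core, 0 of 7 passed the test with sorafenib, 1 of 7 at an unadjusted p under 0.05, and their median log2 fold change was -0.19. PSMA5 had 67.3, 98.1, 90.4 and 103.9 CPM with sorafenib in the 4 lines, against 97.2, 136.3, 116.6 and 143.2 CPM with DMSO. It was lower in every line, but the groups overlapped, and the log2 fold change was -0.47 ± 0.17 (SE), adjusted p = 0.0709. PSMA4 had 170.6, 183.3, 189.6 and 223.6 CPM with sorafenib and 238.0, 290.6, 276.4 and 278.7 CPM with DMSO, with no overlap between the groups (-0.52 ± 0.25 (SE), adjusted p = 0.159). PSMA1 and PSMA6 had log2 fold changes of 0.07 and 0.09, so the 7 genes did not share a direction.

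The beta subunits include the 3 with the active sites. PSMB5, the chymotrypsin-like subunit and main target of bortezomib, had 140.9, 163.3, 197.7 and 272.8 CPM with sorafenib, against 161.1, 188.7, 175.8 and 203.5 CPM with DMSO. It was lower in KU-cHCC-001 and KU-cHCC-002 and higher in the other lines, with a fitted log2 fold change of 0.05 ± 0.23 (SE), adjusted p = 0.896. PSMB6, the caspase-like subunit, had 139.2, 166.7, 167.0 and 162.9 CPM with sorafenib and 162.2, 247.1, 182.1 and 167.3 CPM with DMSO (-0.27 ± 0.21 (SE), adjusted p = 0.402). PSMB7, the trypsin-like subunit, had 150.7, 204.6, 143.3 and 186.5 CPM with sorafenib and 185.0, 272.7, 171.8 and 189.9 CPM with DMSO (-0.27 ± 0.21 (SE), adjusted p = 0.393). Both were below DMSO in each line, and neither passed the threshold. PSMB4, a beta subunit without an active site, had 159.4, 219.3, 172.5 and 231.2 CPM with sorafenib and 208.6, 292.1, 225.2 and 238.9 CPM with DMSO (-0.32 ± 0.22 (SE), adjusted p = 0.321). The groups overlapped in these 4 genes, and 0 of 7 beta subunits passed the test.

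The ATPases form the unfolding ring of the base. PSMC5 had 101.7, 129.6, 73.6 and 99.6 CPM with sorafenib in the 4 lines, against 156.6, 248.2, 141.0 and 163.5 CPM with DMSO. Every sorafenib library was below every DMSO library, and the log2 fold change was -0.82 ± 0.19 (SE), adjusted p = 0.0152, the lowest of the 38. Leaving out KU-cHCC-004 or KU-cHCC-005 raised the adjusted p to 0.0900 or 0.0862 with fold changes of -0.78 and -0.83, and it was called in 9 of 12 alternatives (adjusted p 0.00135 to 0.0900). The ring's other members were not past the threshold: PSMC4 was at -0.45 ± 0.19 (SE), adjusted p = 0.116, PSMC1 at -0.31 ± 0.19 (SE), adjusted p = 0.264, and PSMC6 at 0.17 ± 0.14 (SE), adjusted p = 0.394. PSMC1 had 136.1, 133.8, 99.7 and 136.1 CPM with sorafenib and 148.4, 186.6, 123.5 and 161.2 CPM with DMSO, lower in each line.

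The scaffold subunits of the base, PSMD1 and PSMD2, and the ubiquitin receptor PSMD4 were all below DMSO in all 4 lines with sorafenib, and 0 of the 3 passed the test. PSMD1 had 119.5, 247.6, 204.4 and 211.3 CPM with sorafenib, against 139.7, 362.7, 257.7 and 282.7 CPM with DMSO (-0.40 ± 0.16 (SE), adjusted p = 0.0927). PSMD2, which also docks shuttle proteins, had 395.2, 357.9, 334.0 and 415.0 CPM with sorafenib and 466.6, 478.8, 399.6 and 507.6 CPM with DMSO (-0.32 ± 0.19 (SE), adjusted p = 0.267). PSMD2 levels overlapped between the treatments because KU-cHCC-004 with DMSO lay below KU-cHCC-005 with sorafenib.

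Lid subunits did not share a direction with sorafenib: 4 of 8 had positive and 4 negative fold changes, with a median of 0.02, and 0 passed the test. PSMD3 had 151.5, 193.3, 138.7 and 139.0 CPM with sorafenib, against 181.2, 287.5, 210.2 and 221.4 CPM with DMSO, lower in all 4 lines (-0.55 ± 0.19 (SE), adjusted p = 0.0592). PSMD12 had 109.7, 126.1, 135.3 and 105.0 CPM with sorafenib and 93.8, 86.1, 88.0 and 98.1 CPM with DMSO, with every sorafenib library above every DMSO library (0.36 ± 0.15 (SE), adjusted p = 0.109). It was the 1 member whose groups did not overlap in the higher direction, as 6.57% of all tested genes did; PSMA4 and PSMC5 were the 2 in the lower direction, against 5.44%. PSMD14, the deubiquitinase of the lid, was at 0.11 ± 0.18 (SE), adjusted p = 0.713.

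Base chaperones, which hold the ATPases during assembly and leave the finished particle, were led by PSMD5. It had 70.8, 105.2, 119.8 and 103.7 CPM with sorafenib in the 4 lines, against 44.6, 67.8, 71.2 and 72.7 CPM with DMSO. Each line was higher with sorafenib, by 0.66, 0.63, 0.75 and 0.51 on the log2 scale, while the groups overlapped because KU-cHCC-001 was low under both treatments. The log2 fold change of 0.62 ± 0.24 (SE), adjusted p = 0.0934, the highest of the 38, was past the threshold only without the toceranib libraries (0.61 ± 0.11 (SE), adjusted p = 0.00373), with total counts as the scaling, or without KU-cHCC-001. PSMD9 and PSMD10, known as gankyrin, were at 0.01 and -0.08.

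Among the 4 activators, 1 passed the test with sorafenib. PSME1 had 64.0, 95.9, 91.9 and 83.4 CPM with sorafenib in the 4 lines, against 90.9, 166.9, 194.9 and 138.4 CPM with DMSO. It was lower in every line, and the groups overlapped only through KU-cHCC-001 with DMSO (-0.81 ± 0.22 (SE), adjusted p = 0.0253). That call was absent without KU-cHCC-002 (adjusted p = 0.0544), KU-cHCC-004 (0.169) or KU-cHCC-005 (0.114), and over its 12 alternatives the adjusted p was 0.00228 to 0.169. PSME2, with which PSME1 forms a mixed ring, had 50.6, 113.9, 155.9 and 99.8 CPM with sorafenib and 53.6, 153.7, 206.7 and 111.6 CPM with DMSO (-0.29 ± 0.17 (SE), adjusted p = 0.238). PSME3 and PSME4, which act in the nucleus, were at 0.10 and -0.04.

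**Figure D3:**
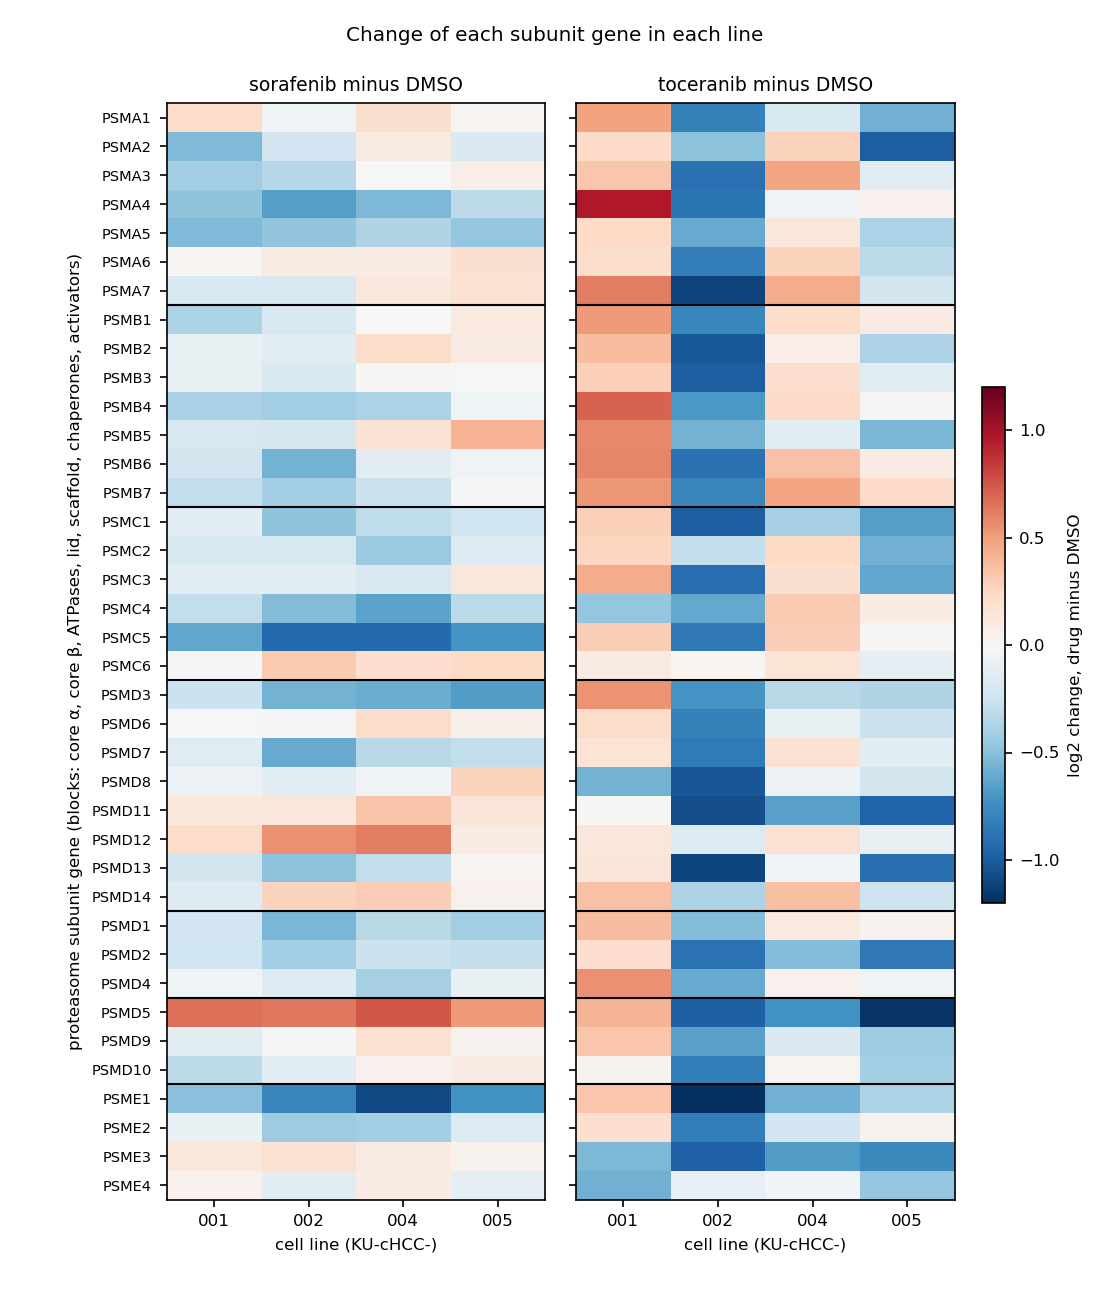
Difference of log2(CPM + 0.5), drug minus DMSO of the same line, for the 38 members (rows) in the 4 lines (columns), red for higher and blue for lower with the drug. With toceranib, KU-cHCC-002 is blue in 37 of 38 rows and KU-cHCC-001 red in 34; with sorafenib, PSMD5 is red and PSMC5 and PSME1 are blue in every line.

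With toceranib the members were mostly above DMSO in KU-cHCC-001 and mostly below it in KU-cHCC-002, and 1 passed the test over all 4 lines. PSME3 was lower, and 0 members were higher, against 3.15% of all tested genes called lower and 4.31% higher in the 12-library fit. At an unadjusted p under 0.05 there were 0 higher and 6 lower members, against 2225 higher and 1895 lower of 14938 tested genes. DESeq2 called 0 members higher and 2 lower, PSME3 and PSMD11, against 1372 and 963 of the tested genes. The median log2 fold change of the members was -0.15, against -0.01 for all tested genes, and it was -0.006 without KU-cHCC-002. In 3 members the change was lower in all 4 lines (7.89%, against 14.7% of all tested genes), and in 0 it was higher in all 4, against 15.4%.

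The 38 members summed to 7009, 5068, 6322 and 5902 CPM with toceranib in the 4 lines, against 5619, 8821, 6173 and 7404 CPM with DMSO. The order of the lines with toceranib was the reverse of that with DMSO: KU-cHCC-001 was highest and KU-cHCC-002 lowest. Ratios of toceranib to DMSO were 1.25, 0.57, 1.02 and 0.80 for all members and 1.45, 0.56, 1.17 and 0.87 for the 14 core subunits. In KU-cHCC-002, 37 of 38 members were lower, and 32 were past -0.5 on the log2 scale (84.2%, against 25.4% of all tested genes). In KU-cHCC-001, 34 were higher, and 9 were past 0.5 (23.7%, against 19.9%).

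Members' medians by line were 0.29, -0.83, 0.10 and -0.29 in the 4 lines with toceranib, and each kept its sign with RLE scaling and with total counts alone. The median over 3787 genes in the members' own range of CPM was 0.00, -0.23, -0.14 and -0.21. Each line gave 1 toceranib and 1 DMSO library, so the difference between lines could not be tested. By the ratio of count difference to counting noise, KU-cHCC-002 with toceranib was closer to DPBS libraries than to its own DMSO library. Of the stromal markers, VIM had 4860, 1298, 2664 and 2293 CPM with toceranib, against 6734, 2074, 1340 and 1477 CPM with DMSO, and the other 8 summed to 82.6, 23.8, 232.8 and 867.7 CPM with toceranib, against 45.6, 35.0, 212.2 and 19.0 CPM with DMSO. Leukocyte markers summed to 333.3, 61.9, 73.6 and 73.0 CPM with toceranib, against 14.4, 39.6, 85.2 and 85.2 CPM with DMSO; the toceranib sum of KU-cHCC-001 was mostly CD74 and the other sums mostly CD14, and CD3E had no read in any library. Their part in the changes was not tested, and in bulk RNA fewer cells of a type and less RNA per cell cannot be told apart. With both KU-cHCC-004 and KU-cHCC-005 toceranib libraries left out, the members' median was -0.15 and 0 members were called.

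All 7 alpha and all 7 beta subunits were higher with toceranib in KU-cHCC-001 and lower in KU-cHCC-002. PSMB5 had 240.3, 127.3, 160.6 and 138.6 CPM with toceranib in the 4 lines, against 161.1, 188.7, 175.8 and 203.5 CPM with DMSO (-0.13 ± 0.24 (SE), adjusted p = 0.749). PSMB6 had 244.1, 132.5, 232.5 and 178.1 CPM with toceranib, against 162.2, 247.1, 182.1 and 167.3 CPM with DMSO (0.05 ± 0.21 (SE), adjusted p = 0.899), and PSMB7 had 267.8, 157.7, 238.6 and 223.2 CPM, against 185.0, 272.7, 171.8 and 189.9 CPM (0.14 ± 0.21 (SE), adjusted p = 0.706). In all 3 catalytic genes KU-cHCC-001 was the highest toceranib library and KU-cHCC-002 the lowest, and the fitted changes lay near 0. Changes by line were 0.96, -0.88, -0.05 and 0.06 for PSMA4 and 0.62, -1.11, 0.45 and -0.22 for PSMA7 on the log2 scale. PSMA1 had 125.2, 142.2, 107.3 and 91.6 CPM with toceranib and 89.5, 249.6, 122.2 and 136.6 CPM with DMSO (-0.26 ± 0.20 (SE), adjusted p = 0.419), and PSMB2 had 216.2, 116.6, 168.3 and 158.0 CPM with toceranib and 167.2, 236.2, 159.6 and 204.4 CPM with DMSO (-0.21 ± 0.21 (SE), adjusted p = 0.556).

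Of the 20 genes of the regulatory particle and its chaperones, 18 were higher with toceranib in KU-cHCC-001 and 19 lower in KU-cHCC-002, with median changes of 0.24 and -0.82. Of the 4 activators, 2 were higher in KU-cHCC-001 and 0 in KU-cHCC-002. The ATPase PSMC1 had 181.6, 93.6, 93.9 and 101.6 CPM with toceranib, against 148.4, 186.6, 123.5 and 161.2 CPM with DMSO (-0.43 ± 0.19 (SE), adjusted p = 0.170), and PSMC5, lower with sorafenib, had 192.4, 136.6, 173.6 and 165.1 CPM with toceranib (-0.04 ± 0.19 (SE), adjusted p = 0.909). PSMD2 had 536.5, 259.3, 278.4 and 280.7 CPM with toceranib, against 466.6, 478.8, 399.6 and 507.6 CPM with DMSO (-0.50 ± 0.20 (SE), adjusted p = 0.128); it was higher in KU-cHCC-001 and lower in the other 3 lines. The lid subunit PSMD11, which in human cells is known to set how much regulatory particle joins the core, had 182.5, 106.6, 108.7 and 96.8 CPM with toceranib and 180.5, 223.3, 170.8 and 189.1 CPM with DMSO. Its change was 0.02, -1.06, -0.65 and -0.96 by line, near 0 in KU-cHCC-001 alone (-0.65 ± 0.19 (SE), adjusted p = 0.0630). PSMD8, another lid subunit, had 139.9, 115.6, 201.5 and 197.7 CPM with toceranib and 207.5, 235.5, 211.3 and 229.9 CPM with DMSO, with no overlap (-0.46 ± 0.17 (SE), adjusted p = 0.112).

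The chaperone PSMD5 had 59.2, 34.2, 42.9 and 31.9 CPM with toceranib, against 44.6, 67.8, 71.2 and 72.7 CPM with DMSO (-0.59 ± 0.25 (SE), adjusted p = 0.148). It was higher in KU-cHCC-001 and lower in the other 3 lines. PSME3 had 96.6, 72.1, 81.5 and 80.0 CPM with toceranib in the 4 lines, against 141.0, 142.1, 129.8 and 137.3 CPM with DMSO. Every toceranib library was below every DMSO library, and the log2 fold change was -0.74 ± 0.13 (SE), adjusted p = 0.0185. Groups that did not overlap in the lower direction were found for PSME3 and PSMD8, 2 of 38, against 3.52% of all tested genes. The PSME3 call was kept in 6 of 16 alternatives: it was not past the threshold in the 8 toceranib and DMSO libraries alone (adjusted p = 0.0758, where 0.168% of genes were called lower and 0.735% higher), without the block of line (0.115), without KU-cHCC-002 (0.0997), without KU-cHCC-004 (0.107), or without KU-cHCC-005 (0.166). It was also lost without the toceranib library of KU-cHCC-004 (0.0504), without that of KU-cHCC-005 (0.0654), without both (0.130), and in the 2 fits against DPBS. Over the 14 alternatives against DMSO its log2 fold change was -0.79 to -0.67.

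DPBS libraries gave PSME3 levels of 101.8 to 111.9 CPM, between those with toceranib and those with DMSO. For the members as a whole DPBS sums were 5260 to 6010 CPM, against 5068 to 7009 CPM with toceranib. Toceranib minus DPBS in a fit of treatment over all 16 libraries, with no line term, had 0 members called in either direction by edgeR (3 higher and 1 lower at an unadjusted p under 0.05, and 0 of 15515 genes at the adjusted threshold). The members' median was 0.09, opposite in sign to the -0.15 against DMSO, and PSME3 was at -0.37 ± 0.12 (SE, adjusted p = 0.458). This fit counts the 4 DPBS libraries as separate samples, so its p-values are too small if the close pairs are not.

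Sorafenib and toceranib differed at their own doses, 30 µM and 15 µM, in 4 members over the same 4 lines. PSMD5, PSMD11 and PSME3 were higher and PSMC5 was lower with sorafenib than with toceranib, where 18.3% of all tested genes were called higher and 20.1% lower. PSMD5 had 70.8, 105.2, 119.8 and 103.7 CPM with sorafenib in the 4 lines, against 59.2, 34.2, 42.9 and 31.9 CPM with toceranib. All 4 sorafenib libraries were above all 4 toceranib libraries, as in 4 members with PSMD11, PSMD12 and PSME3 (10.5%, against 10.8% of all tested genes); in the lower direction PSMC5 was the 1 member without overlap, against 9.81%. The log2 fold change of PSMD5 was 1.21 ± 0.25 (SE), adjusted p = 0.00363. PSMD11 had 197.5, 245.5, 216.2 and 209.9 CPM with sorafenib, against 182.5, 106.6, 108.7 and 96.8 CPM with toceranib, again with no overlap (0.82 ± 0.19 (SE), adjusted p = 0.00744). The PSMD11 call was kept in 10 of 14 alternatives (adjusted p 5.28e-04 to 0.130), and was lost without KU-cHCC-002 (0.0506), without KU-cHCC-004 (0.0607) or without KU-cHCC-005 (0.0547).

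PSME3 had 155.2, 161.1, 139.3 and 141.2 CPM with sorafenib and 96.6, 72.1, 81.5 and 80.0 CPM with toceranib, a log2 fold change of 0.84 ± 0.13 (SE), adjusted p = 0.00107, and it was called in all 14 alternatives of this comparison. PSMC5 had 101.7, 129.6, 73.6 and 99.6 CPM with sorafenib and 192.4, 136.6, 173.6 and 165.1 CPM with toceranib, likewise with no overlap (-0.78 ± 0.20 (SE), adjusted p = 0.0101). It was called in 11 of 14 alternatives (adjusted p 0.00127 to 0.159), and not without KU-cHCC-004 (0.0916) or without KU-cHCC-005 (0.0602). Without the toceranib libraries of KU-cHCC-004 and KU-cHCC-005 PSME3 and PSMD8 were higher and 0 were lower, PSMC5 then being at an adjusted p of 0.159, PSMD11 at 0.130 and PSMD5 at 0.0836. The share of all tested genes called in that fit is not given here. The catalytic genes had log2 differences of 0.19 ± 0.24 for PSMB5, -0.32 ± 0.21 for PSMB6 and -0.41 ± 0.21 for PSMB7 (SE), none of them past the threshold. The 2 drugs were given at different doses, and perhaps in different vehicles, and these cannot be told apart from the drug.

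**Figure D4:**
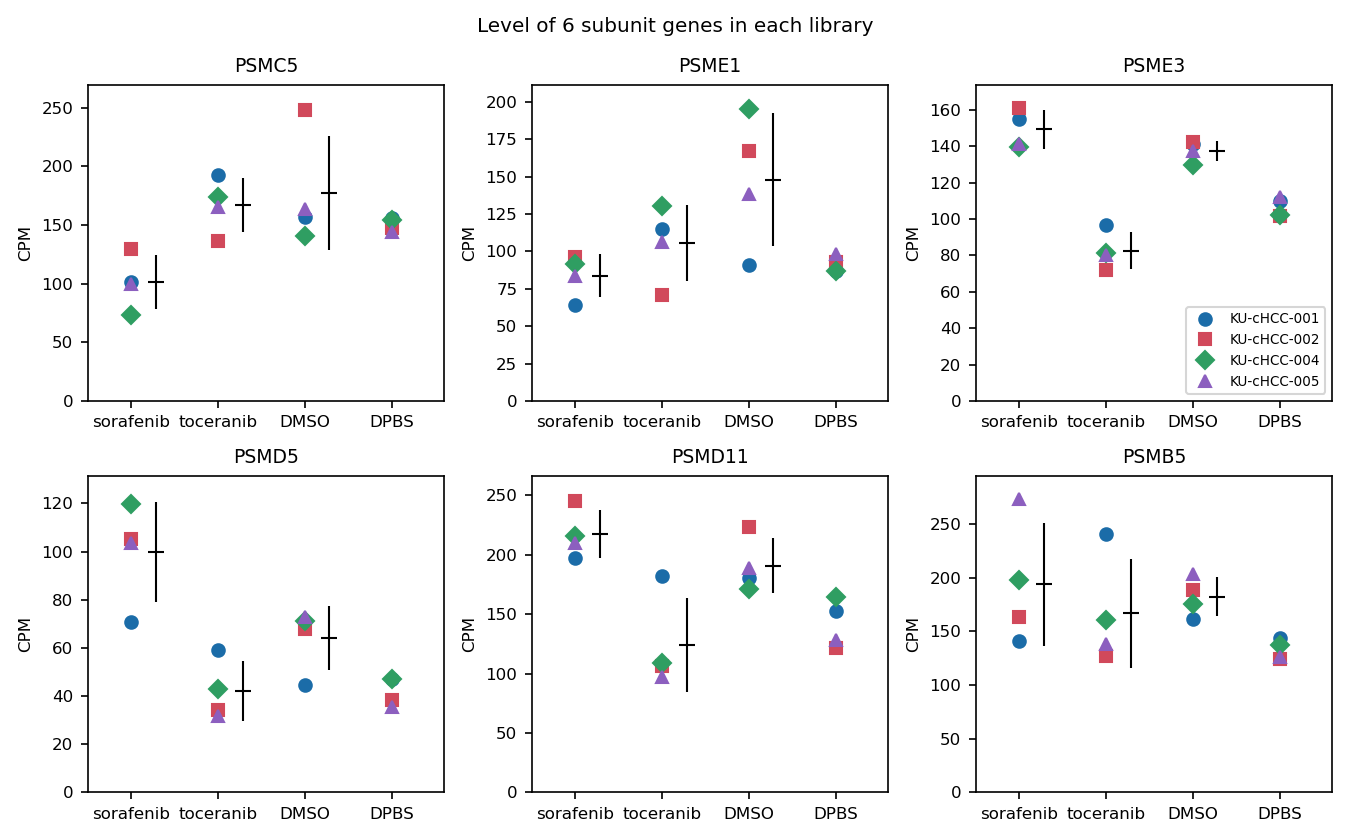
CPM (y axis, linear from 0) of PSMC5, PSME1, PSME3, PSMD5, PSMD11 and PSMB5 in each of the 16 libraries, by treatment (x axis); symbols mark lines and the black mark with bar beside each group its mean ± SD (n = 4; none drawn for DPBS). PSMC5 is lowest with sorafenib, PSME3 lowest with toceranib, and PSMD5 highest with sorafenib.

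Across the 12 sorafenib, toceranib and DMSO libraries, centred within each line, members varied together. The median Pearson correlation between pairs of the 38 was 0.561, against -0.0005 between pairs of all tested genes; it is given as a description, since the libraries share lines, vehicles and scaling. Beta subunits and the 3 base chaperones each had a median of 0.789, alpha subunits had 0.689, and the 4 activators had the lowest of the 7 groups, 0.171. PSMA7, at 0.703 with the other members, was the most typical, while PSME4 (-0.063), PSMD12 (0.097), PSMC4 (0.211) and PSME3 (0.285) had the lowest. The median was 0.755 in the 8 toceranib and DMSO libraries and 0.282 in the 8 sorafenib and DMSO libraries, and it was 0.387 over the 9 libraries without KU-cHCC-002.

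Genes that assemble, regulate or supply the proteasome were read from a list of 41, of which 40 were tested; POMP was not analysed here. With sorafenib 7 of 40 were higher and 1 lower, where 9.59% of all tested genes were higher and 10.1% lower. With toceranib 0 were higher and 1 lower, where 4.31% were higher and 3.15% lower. In the 8 sorafenib and DMSO libraries alone the counts were 9 higher and 7 lower (against 18.3% and 18.2% of all genes tested there), and in the 8 toceranib and DMSO libraries 0 in each direction. At an unadjusted p under 0.05 toceranib had 2 higher and 8 lower, against 2225 higher and 1895 lower of 14938 tested genes.

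Of 8 listed regulators of subunit genes and factors known to process them, 3 were called higher and 0 lower with sorafenib. Over all tested genes 9.59% were called higher and 10.1% lower. NGLY1, the cytosolic enzyme that removes N-glycans from NFE2L1, had 35.3, 38.5, 86.3 and 73.1 CPM with sorafenib in the 4 lines, against 23.9, 20.3, 27.5 and 26.7 CPM with DMSO (1.13 ± 0.21 (SE), adjusted p = 0.00580). SYVN1 and SEL1L, the ubiquitin ligase and its partner in degradation from the endoplasmic reticulum, had log2 fold changes of 0.83 ± 0.22 (SE), adjusted p = 0.0220, and 0.87 ± 0.19 (SE), adjusted p = 0.0104. NFE2L1 itself had 158.7, 227.2, 258.8 and 185.9 CPM with sorafenib and 178.3, 186.1, 232.4 and 104.9 CPM with DMSO, with overlapping groups (0.28 ± 0.31 (SE), adjusted p = 0.551). DDI2, the protease that cleaves NFE2L1, had 43.3, 15.1, 22.7 and 21.2 CPM with sorafenib and 23.7, 9.3, 8.7 and 17.6 CPM with DMSO (0.78 ± 0.35 (SE), adjusted p = 0.143), and VCP, which extracts it from the membrane, was at -0.43 ± 0.17 (SE), adjusted p = 0.0983.

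Shuttle and ubiquitin genes rose in part. ZFAND2A, an arsenite-inducible protein that binds the regulatory particle, had 97.0, 62.0, 50.8 and 94.5 CPM with sorafenib, against 26.1, 35.5, 27.8 and 33.6 CPM with DMSO. Every sorafenib library was above every DMSO library (1.25 ± 0.21 (SE), adjusted p = 0.00404). UBA6, one of the ubiquitin-activating enzymes, had 144.0, 60.7, 157.0 and 93.0 CPM with sorafenib and 63.9, 22.2, 62.4 and 51.3 CPM with DMSO (1.18 ± 0.23 (SE), adjusted p = 0.00751). The shuttles RAD23B and UBQLN1, which carry ubiquitin-tagged proteins to the base, were at 0.52 ± 0.14 (SE), adjusted p = 0.0259, and 0.61 ± 0.14 (SE), adjusted p = 0.0126. Of their 12 alternatives RAD23B was called in 6 and UBQLN1 in 8 (adjusted p 0.00208 to 0.305 and 1.49e-04 to 0.146). Both calls were lost with the block of line left out, or when any line but KU-cHCC-001 was left out, and that of RAD23B also with no low-count filter and with all 16 libraries. Of the other 5 higher genes, ZFAND2A was called in all 12 alternatives, UBA6 and SEL1L each in 11, NGLY1 in 9 and SYVN1 in 8.

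MIDN, which delivers nuclear proteins to the proteasome without ubiquitin, was the gene of the list that fell with sorafenib: it had 66.5, 136.8, 207.0 and 171.9 CPM with sorafenib and 167.1, 241.4, 326.8 and 212.2 CPM with DMSO (-0.77 ± 0.20 (SE), adjusted p = 0.0245), and it was called in 8 of 12 alternatives. The immune catalytic subunit PSMB8 had 2.3, 3.0, 7.6 and 0.414 CPM with sorafenib and 4.2, 8.3, 36.0 and 1.2 CPM with DMSO (-1.56 ± 0.52 (SE), adjusted p = 0.0572), not past the threshold in the 12-library fit. Core assembly genes PSMG1 to PSMG4 had log2 fold changes of -0.07, -0.34, -0.64 and -0.31, with 0 of 5 assembly genes past the threshold.

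With toceranib UBQLN4, another shuttle, was the gene that fell, at 35.9, 34.5, 27.0 and 23.1 CPM with toceranib and 45.6, 62.9, 42.3 and 48.2 CPM with DMSO (-0.73 ± 0.16 (SE), adjusted p = 0.0285), and it was called in 6 of 16 alternatives. NGLY1 was at 0.13 ± 0.21 (SE), adjusted p = 0.725, and NFE2L1 at -0.16 ± 0.31 (SE), adjusted p = 0.777. Sorafenib against toceranib gave 13 higher and 2 lower of the 40, where 18.3% of all tested genes were higher and 20.1% lower. The 2 lower were VCP (-0.55 ± 0.17 (SE), adjusted p = 0.0258) and PSMB8 (-1.49 ± 0.54 (SE), adjusted p = 0.0482), called in 4 and 3 of 14 alternatives. In the 8 sorafenib and toceranib libraries alone the counts were 11 higher and 0 lower, against 13.1% and 14.5%. ZFAND2A (1.80 ± 0.22 (SE), adjusted p = 2.78e-04) and UBA6 (1.77 ± 0.24 (SE), adjusted p = 4.76e-04) had the largest differences, and RAD23B and UBQLN1 were, with these, called in all 14 alternatives.

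**Figure D5:**
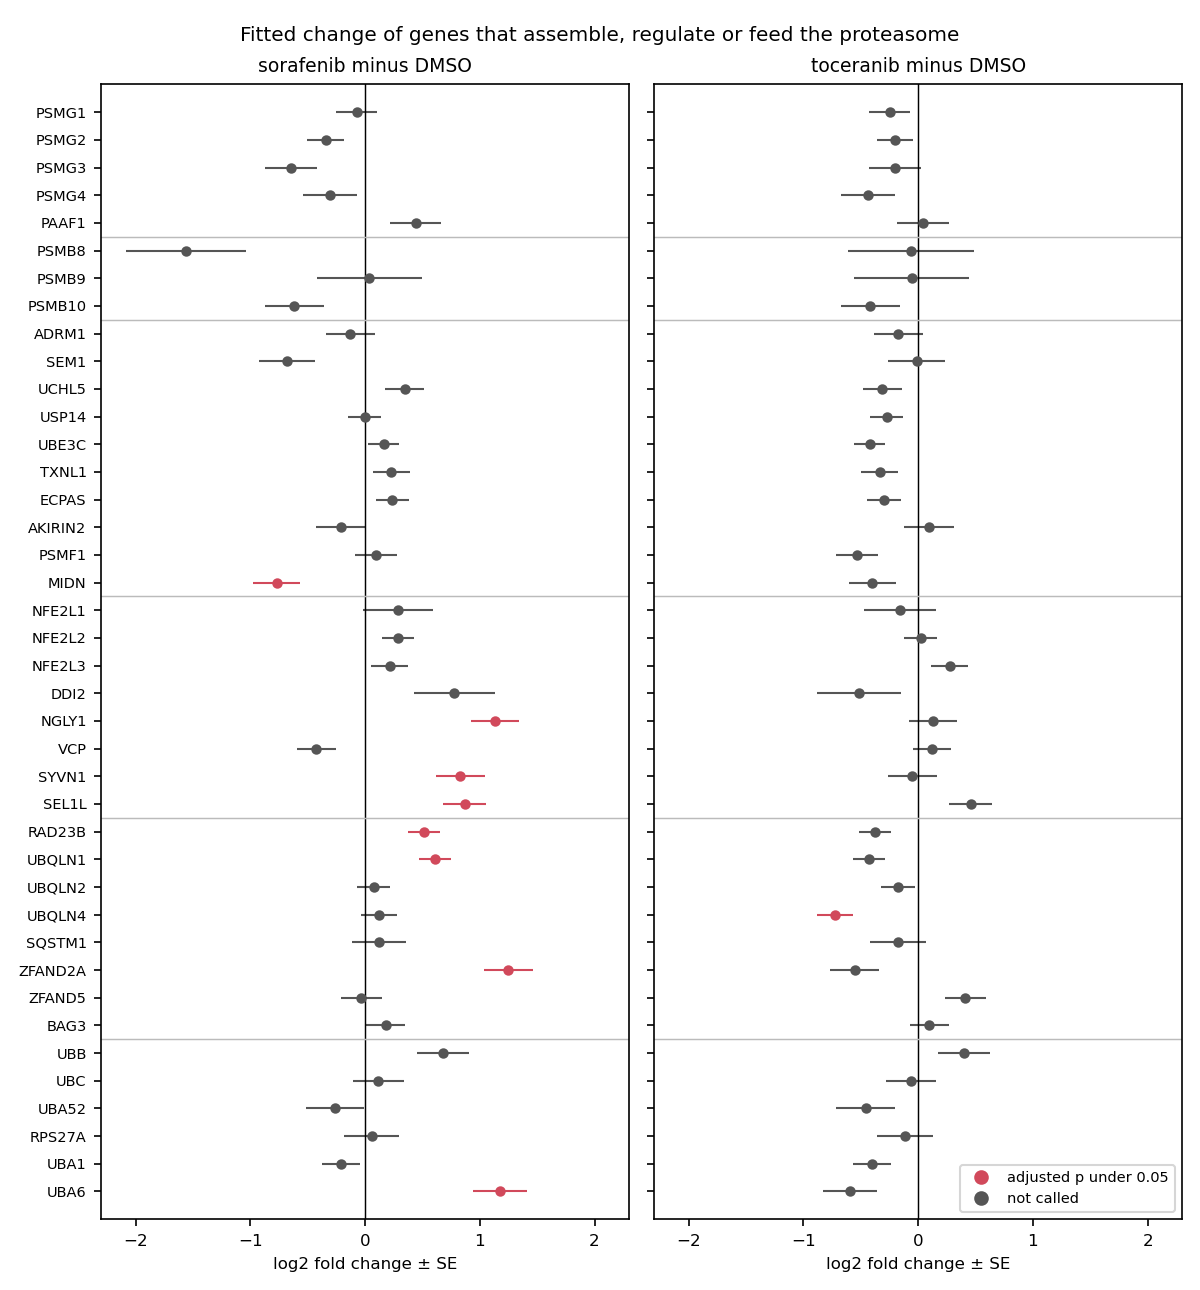
Fitted log2 fold change (x axis) with bars of 1 SE for the 40 tested genes that assemble, regulate or supply the proteasome (y axis, in blocks by role), for sorafenib minus DMSO and toceranib minus DMSO. Red points passed an adjusted p under 0.05: 8 genes with sorafenib, 7 of them higher, and UBQLN4 with toceranib.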

How the data were processed

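The 16 libraries were made with a directional kit from total RNA, per the labels' protocols. Values deposited by the authors are raw counts of reads for each gene symbol, whole and not normalized; per the submitters' processing notes TopHat was used. Its version, the counting program, its use of strand and of reads with several matches, the build and the gene annotation were not given in the sources used, so genes with near-identical copies or overlapping partners are uncertain. Entries that share a symbol (500 of 39954, 89 symbols) were summed. No genome of the counted build was used, so no sequence or coordinate is given, and gene lengths were not used, so levels are compared within a gene.

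edgeR 4.0.16 in R 4.3.3 kept 14938 genes by filterByExpr, scaled by TMM, and fitted treatment and cell line with robust quasi-likelihood tests over 12 libraries (6 residual degrees of freedom, common dispersion 0.081), with p-values adjusted over all genes at a threshold of 0.05. CPM values are TMM-scaled over 16 libraries. Changes by line are differences of log2(CPM + 0.5). The line entered as a block because equal numbers are the same line by their labels. Deviations correlated at 0.753 to 0.892 for sorafenib with DMSO and 0.560 to 0.797 for toceranib with DMSO, but at -0.455 to 0.290 for DPBS with DMSO. By the ratio of count difference to counting noise, toceranib in KU-cHCC-004 was at 5.86 with toceranib in KU-cHCC-005. With its own DMSO library it was at 17.5. Genes were named if catalytic, if called, or if of smallest p in their structural group or the drug contrast. One gene of the lists is not reported here. Members and lists were chosen with earlier results of these data known. On simulated sorafenib counts with 200 changed genes, the fit called 40% of genes lowered by 1 log2 unit, 50% of genes raised by 1, 100% of those changed by 2, and 0.0344% of unchanged genes. Every simulated gene had the same dispersion and none responded to toceranib, so these rates do not describe the members. Alternatives were RLE or total-count scaling, no filter, DESeq2 1.42.0, no block, other sets of libraries and DPBS as the control. Reads carried no molecular identifiers, so a count's own sampling error is a lower limit.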

Additional observations from a re-analysis of the deposited data

Results flagged for a closer look

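A change in 1 line stood apart from the other 3 lines in 5 of 114 sets of 4 changes by line (38 members, 3 comparisons), while chance alone gives about 5% of sets, so the number is near that rate. The sorafenib change of PSMB4 was -0.0473 in KU-cHCC-005, against -0.413 to -0.383 in the other lines. That of PSMC2 was -0.449 in KU-cHCC-004, against -0.195 to -0.153 elsewhere, and that of PSMD11 was 0.339 in KU-cHCC-004, against 0.129 to 0.15. Between sorafenib and toceranib, PSMD5 differed by 0.257 in KU-cHCC-001, against 1.47 to 1.69 in the other lines, and PSME2 by 0.4 in KU-cHCC-002, against -0.278 to -0.178.

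Toceranib against DMSO went opposite ways in 2 lines: 37 of 38 members were lower in KU-cHCC-002 and 34 of 38 higher in KU-cHCC-001. The difference was not tested, because each line had 1 library per treatment.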

How the results depend on the processing

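Of 418 results for single called genes under the alternatives, 302 kept their direction and side of the threshold, 116 kept the direction and lost the call, and 0 reversed. Member counts moved as follows, with the reported counts 0 higher and 2 lower for sorafenib, 0 and 1 for toceranib, and 3 and 1 for sorafenib against toceranib. Sorafenib had 1 higher member with total counts as the scaling, and 1 higher and 11 lower in its 8 libraries alone; DESeq2 called 4 lower. Toceranib had 2 lower members with no low-count filter and with DESeq2, and 0 in its 8 libraries alone, without the toceranib library of KU-cHCC-005, without that of KU-cHCC-004, without both, and with DPBS as the control with or without the block. Sorafenib against toceranib had 2 lower members with RLE scaling and with DESeq2, and 0 without the toceranib libraries of KU-cHCC-004 and KU-cHCC-005. Leaving out KU-cHCC-004 from toceranib, alone or with KU-cHCC-005, was chosen after seeing the data. The cause of these shifts was not tested, beyond the fewer libraries of some fits.

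Without the replicate block of cell line, 0 members were called lower with sorafenib and 0 with toceranib, while sorafenib against toceranib kept counts of 3 higher and 1 lower. Leaving out each line in turn gave 0 to 1 higher and 0 to 3 lower members with sorafenib. It gave 0 to 6 lower with toceranib, 6 without KU-cHCC-001 and 0 without any other line, and 2 to 6 higher and 0 to 4 lower for sorafenib against toceranib. Shares of all tested genes called are not given here for fits without the block or with lines or toceranib libraries left out. The member counts of those fits are therefore no result about the members against other genes. The members' median stayed between -0.18 and -0.06 for sorafenib in every setting. For toceranib it was -0.26 to -0.01 against DMSO and 0.06 to 0.09 against DPBS, and for sorafenib against toceranib it changed sign, from -0.10 without KU-cHCC-002 to 0.22 without KU-cHCC-001.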
